A study of Rattus norvegicus with 6 samples.

Results

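Prostanoids are short-lived lipid signals made from arachidonic acid, and the genes described here are those of their synthesis and reception in the rat aorta. The set holds 4 synthesis enzymes (Ptgs1, Ptgs2, Ptgis and Tbxas1) and 6 receptors (Ptgir, Tbxa2r, Ptger2, Ptger3, Ptger4 and Ptgfr). Its members were taken by gene symbol. Every probe set to which the platform annotation gives 1 of these symbols and no other was kept, which gave 16 probe sets for 10 of the 4736 genes named on the chip. That rule used no measured value, although the member genes were chosen with earlier results of these data known.

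The animals were spontaneously hypertensive rats (SHR), inbred animals with spontaneous high blood pressure. The runners had a running wheel in the cage and exercised voluntarily for 5 weeks, and the non-runners did not run. Each group had 3 Affymetrix arrays, called A, B and C by the letter in their titles, and each array carried total RNA pooled from 3 aortae. All animals shared the strain, no drug or allele is named, and the labels used here give no age or sex. They also do not say which animals went into which pool, so a p-value here compares pools, and the spread between pools may be partly technical.

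Cyclooxygenases, the products of Ptgs1 and Ptgs2, turn arachidonic acid into the precursor prostaglandin H2. Terminal synthases then make the active signals from it, among them prostacyclin by the product of Ptgis and thromboxane A2 by that of Tbxas1. In arteries prostacyclin relaxes smooth muscle and restrains platelets through its receptor, encoded by Ptgir, which acts through Gs and cyclic AMP. Thromboxane A2 contracts the vessel through the receptor encoded by Tbxa2r, which acts mainly through Gq and G13.

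The 250 bases before the annotated start are shown for Ptgir, the member with the clearest separation between the groups, and for Ptgs1 and Ptgs2, which carry out the same reaction but are known as the constitutive and the inducible form. The sequences are from RefSeq on GRCr8, where 9 of the 10 members had an entry, and read 5′ to 3′ on the strand of the gene, which is the plus strand for these 3 genes. Capitals mark matches on either strand to TATAAA (the TATA box), to a variant of it with the letters TTTAAA, to CCAAT (the CCAAT box), to GGGCGG (the GC box), to CACGTG (the E-box), to TGACGTCA (the cyclic AMP response element, CRE), to TTNNGCAAT (a form bound by C/EBP factors) or to the NF-kB consensus.
Ptgir, chr1:86707440-86707689: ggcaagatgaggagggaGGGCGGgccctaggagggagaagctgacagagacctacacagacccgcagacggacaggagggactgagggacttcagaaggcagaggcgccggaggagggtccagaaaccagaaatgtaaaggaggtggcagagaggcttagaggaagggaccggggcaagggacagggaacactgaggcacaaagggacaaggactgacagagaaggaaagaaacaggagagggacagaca
Ptgs1, chr3:39981169-39981418: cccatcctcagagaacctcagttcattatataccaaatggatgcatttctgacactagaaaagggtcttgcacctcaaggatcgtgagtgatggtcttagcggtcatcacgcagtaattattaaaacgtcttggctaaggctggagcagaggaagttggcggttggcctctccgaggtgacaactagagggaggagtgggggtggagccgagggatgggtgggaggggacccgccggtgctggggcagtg
Ptgs2, chr13:64713813-64714062: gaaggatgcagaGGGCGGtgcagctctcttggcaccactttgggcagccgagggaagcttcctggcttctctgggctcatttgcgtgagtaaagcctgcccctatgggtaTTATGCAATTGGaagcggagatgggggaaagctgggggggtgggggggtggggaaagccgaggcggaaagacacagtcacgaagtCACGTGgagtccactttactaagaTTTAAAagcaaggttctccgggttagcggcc

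The Ptgs2 window held 5 of these motifs, the Ptgir window held 1 and the Ptgs1 window held 0. In Ptgs2, TTTAAA began 31 bases before the start, and 12.3% of 33469 rat windows of the same length hold it. The E-box began 55 bases before the start (5.59% of windows). The C/EBP form began at 140 bases (2.04% of windows) and overlapped the CCAAT match that began at 133 (34% of windows). The GC box, held by 30.5% of windows, began 238 bases before the start in Ptgs2 and 233 in Ptgir. TATAAA is held by 12.9% of windows, the CRE by 1.59% and the NF-kB consensus by 6.33%, and these 3 had no match in the windows shown. Such matches describe the letters and do not show that a factor binds.

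Aortic smooth muscle and matrix genes gave bright signals on all arrays. The 7 smooth muscle markers tested summed to an intensity of 12834 to 14792 in non-runners and 12548 to 13588 in runners. Intensities are linear values scaled by array, and a control level of 40.8 was set as the 95th percentile of 19 controls, probe sets against yeast genes or the opposite strand, below which a signal is not distinguished from background here. Between 55.4% and 57.5% of the probe sets on an array lay below that level. Non-runner B differed most from the rest. On it the beta-actin control had a 3′/5′ ratio of 2.14, against 1.22 to 1.67 elsewhere, and this ratio grows when the 5′ end of the RNA is lost. For the genes named below, differences whose sign changed without that array are also given without it.

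Of the 16 prostanoid probe sets, 8 passed the filter on dim signals, which left out the dimmest 40% by mean over all 6 arrays, and these 8 cover 7 genes. All 8 lay above the control level on every array, with a lowest value of 47.2. The other 8 probe sets lay below it on every array, with intensities from 1.5 to 23.8. They include the only probe set of Ptger2, Ptger4 and Tbxas1, so no difference could be measured for these 3 genes.

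Of the 8 tested probe sets, 0 passed limma's test at a Benjamini-Hochberg adjusted p under 0.05, where 0% of the 5244 probe sets of the whole table were called higher and 0% lower. At an unadjusted p under 0.05, limma gave 1 of the 8, Ptgir, against 3.83% of all tested probe sets higher and 4.23% lower, 8.07% in all. Ptgir was also the 1 member whose groups did not overlap, a pattern that 7.76% of tested probe sets showed in that direction and 14.9% in either. Differences ran below 0 for 5 of the 8 (50.8% of all tested probe sets), and their median log2 difference was -0.04, beside -0.01 over all tested probe sets. A count of 1 of 8 is near the background share under each of these rules, and the other 7 members tested had intervals that include 0.

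**Figure D1:**
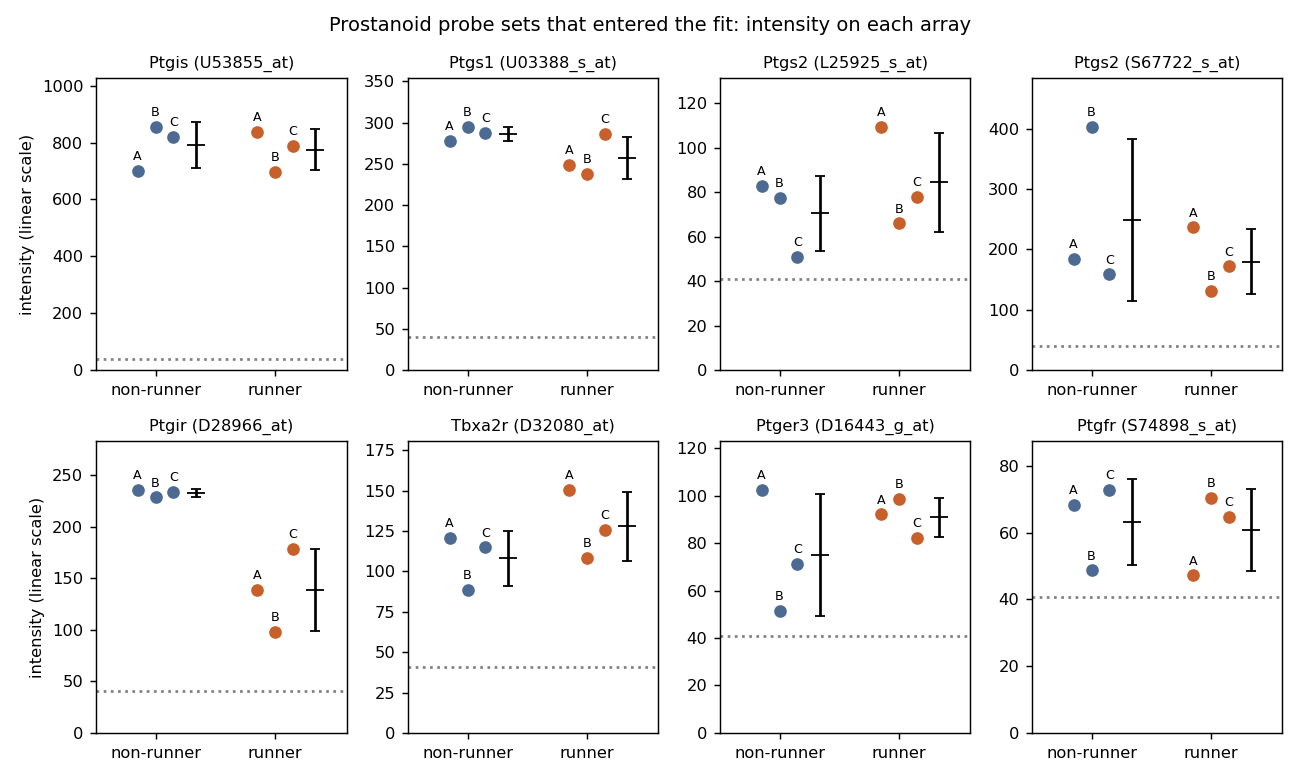
Intensity (linear scale, vertical axis) of the 8 tested prostanoid probe sets on each array, with non-runners in blue, runners in orange and the array letter above each point. Bars are the mean and SD of 3 arrays and the dotted line is the control level of 40.8; in the Ptgir panel the runner points, 98.3 to 178.5, lie below all non-runner points, 228.6 to 236.0.

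Ptgis encodes prostacyclin synthase, a P450-like enzyme abundant in vascular smooth muscle and endothelium. Its probe set U53855_at measured 699.0, 854.3 and 820.5 on non-runners A, B and C, and 838.0, 696.1 and 788.8 on runners A, B and C. The groups covered nearly the same range. The means were 791 ± 81.7 for non-runners against 774 ± 72.1 for runners (SD, n = 3), and the log2 difference, runner minus non-runner here and throughout, was -0.01 ± 0.16 (SE, limma adjusted p = 0.983). Its 95% interval ran from -0.37 to 0.34, or from 0.773-fold to 1.27-fold, so changes of a larger size lay outside the interval. The sign was not settled, and the difference was 0.03 without non-runner B.

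Ptgs1, the constitutive cyclooxygenase and the form found in platelets, was measured by U03388_s_at. It read 277.8, 294.7 and 287.6 on non-runners A, B and C and 248.5, 237.7 and 286.0 on runners A, B and C. Runners A and B were below all non-runners, while runner C lay among them. The means were 287 ± 8.5 and 257 ± 25.4 (SD, n = 3), with a log2 difference of -0.18 ± 0.15 (SE, 95% interval -0.52 to 0.16, limma adjusted p = 0.765). Its spread between arrays of a group was small, with a residual SD of 0.11 on the log2 scale, and 8.52% of tested probe sets had a smaller one. The median over all tested probe sets was 0.23.

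Ptgs2, the cyclooxygenase induced by cytokines, growth factors and shear stress, had a pair of probe sets that did not show the same pattern. L25925_s_at measured 82.9, 77.4 and 51.1 on non-runners A, B and C and 109.3, 66.0 and 77.9 on runners A, B and C. The highest value was on runner A and the lowest on non-runner C, and the groups overlapped. The log2 difference was 0.23 ± 0.24 (SE, 95% interval -0.33 to 0.78, limma adjusted p = 0.813). It was 0.015 without runner A and 0.043 without non-runner C.

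The second Ptgs2 probe set, S67722_s_at, measured 184.5, 402.7 and 158.6 on non-runners A, B and C. On runners A, B and C it measured 236.6, 130.7 and 171.8. Non-runner B was 1.70 times the next highest array, whereas on L25925_s_at that array lay in the middle of the values. Runners minus non-runners gave a log2 difference of -0.39 ± 0.37 (SE, 95% interval -1.23 to 0.46, limma adjusted p = 0.795), opposite in sign to that of L25925_s_at. Without non-runner B it was 0.03. The residual SD was 0.59, and 94.9% of tested probe sets had a smaller one. Non-runner B is also the array with the highest 3′/5′ control ratios, 2.14 for beta-actin and 1.95 for GAPDH, and their part in this value was not tested.

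Tbxas1, thromboxane synthase, is a gene of platelets and macrophages. Its probe set D28773_s_at measured 11.2, 15.1 and 19.9 on non-runners A, B and C and 13.1, 13.5 and 7.1 on runners A, B and C. All 6 values lay below the control level of 40.8, so neither a level nor a fold is given.

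Ptgir, the prostacyclin receptor, had the largest difference of the 8 tested probe sets. D28966_at measured 236.0, 228.6 and 233.9 on non-runners A, B and C and 139.1, 98.3 and 178.5 on runners A, B and C. The non-runner arrays lay close together, the runner arrays were spread out, and every runner array was below every non-runner array. The means were 233 ± 3.8 and 139 ± 40.1 (SD, n = 3). Between the groups the log2 difference was -0.78 ± 0.22 (SE), with a 95% interval from -1.28 to -0.28, or 1.72-fold lower in runners with an interval from 1.22-fold to 2.43-fold. By limma the unadjusted p was 0.00678 and the adjusted p = 0.442 over all 5244 tested probe sets, so it did not pass the threshold. Of these probe sets, 79 had a smaller p and 63 had a difference further below 0. In whole aorta, fewer cells of a type and less RNA per cell cannot be told apart.

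The Ptgir difference kept its sign in all 17 processing alternatives, which include leaving out each array. It ranged from -0.98 without runner C to -0.56 without runner B, the array with the lowest Ptgir value. Without non-runner B it was -0.80. The unadjusted p from limma stayed under 0.05 in all 17, between 0.0021 and 0.0208, and the adjusted p lay between 0.252 and 0.849.

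**Figure D2:**
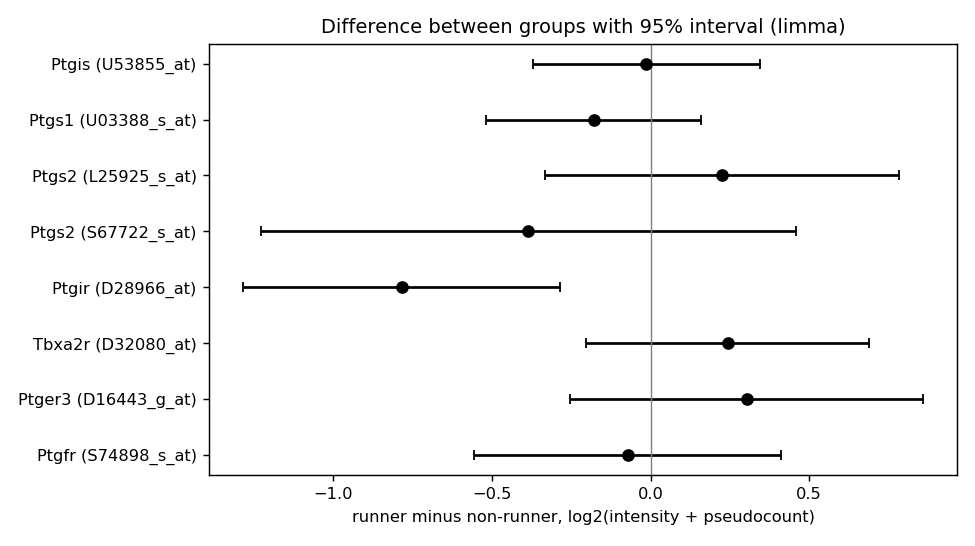
Log2 difference, runner minus non-runner, of each tested prostanoid probe set (points) with the 95% interval from limma (bars), on the log2(intensity + pseudocount) scale. The Ptgir interval, -1.28 to -0.28, excludes 0 before adjustment for multiple tests, and the other 7 intervals include 0.

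**Figure D3:**
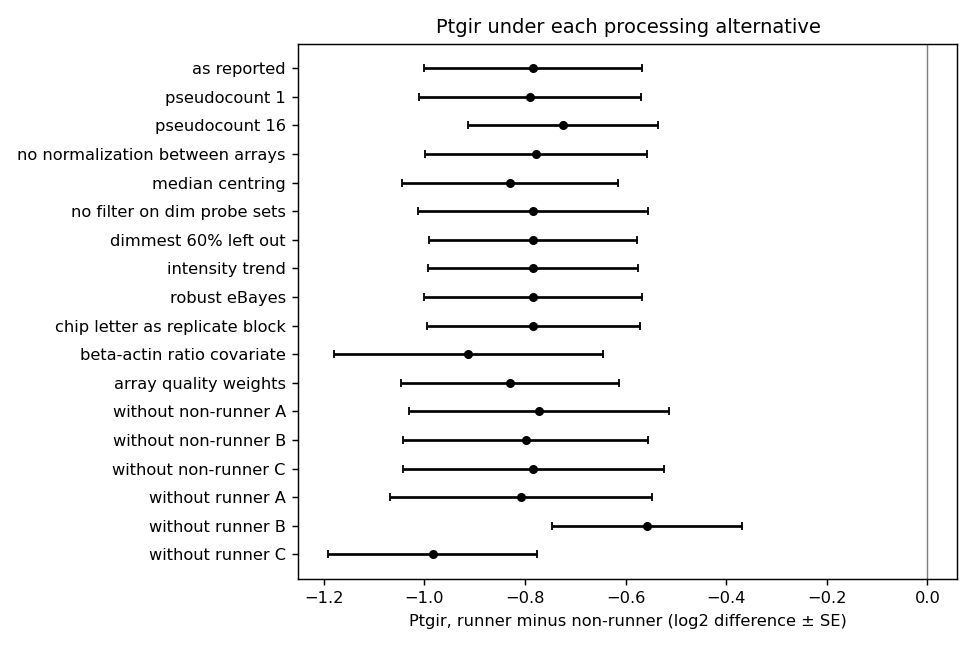
Log2 difference of Ptgir (points, with SE as bars) as reported and under each of the 17 processing alternatives. All points lie below 0, from -0.98 without runner C to -0.56 without runner B.

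Markers of other cell types were read on the same arrays, and 0 of them passed limma's adjusted test. Of 6 tested endothelial markers 5 were lower in runners, and their intensities summed to 536 to 663 on the non-runner arrays and 491 to 505 on the runner arrays. The endothelial score, the mean log2 level of the tested markers centred over the 6 arrays, was 0.11 to 0.29 in non-runners and -0.40 to -0.11 in runners. Egfl7, a protein secreted by endothelial cells, had the largest difference of the 6. It measured 86.7, 140.1 and 129.7 on non-runners A, B and C. On runners A, B and C it measured 37.2, 34.1 and 14.6, below the control level. Nos3, in its brightest probe set, and Flt1 were also lower, with log2 differences of -0.51 ± 0.21 and -0.44 ± 0.19 (SE). Their unadjusted p by limma was 0.043 and 0.0467, and their adjusted p 0.595 and 0.611. Without Egfl7 the groups overlapped, with sums of 396 to 576 in non-runners and 468 to 476 in runners and scores of -0.12 to 0.22 and -0.11 to -0.03. The overlap in score came from non-runner B, at -0.12, while non-runners A and C, at 0.22 and 0.09, lay above all runners. In the sums non-runner C, at 471.7, lay within the runner range, and non-runner B, at 396, lay below it. Pecam1, a defining endothelial marker, went the other way, with 134 ± 58.3 for non-runners against 171 ± 12 for runners (SD, n = 3). It measured 195.1, 79.2 and 126.3 on non-runners A, B and C and 184.4, 167.1 and 161.4 on runners A, B and C. The Pecam1 groups overlapped, with non-runner B the lowest array and non-runner A the highest (limma unadjusted p = 0.167).

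All 7 tested nerve and Schwann cell markers were lower in runners, with sums of 1418 to 1629 against 1073 to 1255, but their scores overlapped, at 0.09 to 0.37 in non-runners and -0.50 to 0.24 in runners. Without Pmp22, a myelin protein, the sums overlapped as well, at 459 to 521 against 259 to 484. Runner B, the lowest array in Ptgir, had the highest nerve score of the runners. The 5 platelet and red cell markers were all higher, with sums of 1615 to 2121 against 2358 to 4657. The largest part of these sums was the hemoglobin gene Hbb. It measured 888.7, 1310.7 and 959.4 on non-runners A, B and C and 1472.7, 1445.7 and 2910.5 on runners A, B and C. The platelet markers Pf4 and Itga2b had log2 differences of 0.35 ± 0.14 and 0.04 ± 0.18 (SE). Smooth muscle scores overlapped, at -0.17 to 0.07 in non-runners and -0.07 to 0.07 in runners. In these lists 0 probe sets were at 0 on any array, and the part of these cell types in the Ptgir values was not tested.

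Tbxa2r, the thromboxane receptor, had 1 bright and 1 dim probe set. D32080_at measured 120.6, 88.7 and 114.8 on non-runners A, B and C and 150.5, 108.1 and 125.4 on runners A, B and C. Runner A was the highest and non-runner B the lowest, and the groups overlapped. On the log2 scale the difference was 0.24 ± 0.19 (SE, 95% interval -0.20 to 0.69, limma adjusted p = 0.757). The dim probe set, D21158_s_at, read 8.7 to 18.9 over all arrays. Leaving out 1 array moved the Tbxa2r difference to 0.10 without non-runner B and 0.12 without runner A, and it was 0.027 with the beta-actin ratio as covariate.

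Ptger3, an inhibitory prostaglandin E2 receptor coupled mainly to Gi, was read above the control level by D16443_g_at. It measured 102.5, 51.5 and 71.4 on non-runners A, B and C and 92.1, 98.6 and 82.2 on runners A, B and C. Non-runner B was the lowest array and non-runner A the highest, so the runner values lay within the non-runner range. The log2 difference was 0.30 ± 0.24 (SE, 95% interval -0.25 to 0.86, limma adjusted p = 0.757). It was 0.07 without non-runner B. The Ptger3 probe sets D14869_s_at and D16443_at lay at 12.5 to 23.8 and 2.2 to 4.9.

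Ptgfr, the prostaglandin F2 alpha receptor, which acts through Gq, had 3 probe sets, of which S74898_s_at was above the control level. That probe set measured 68.4, 48.7 and 72.9 on non-runners A, B and C and 47.2, 70.5 and 64.8 on runners A, B and C. Each group had 1 low array, B in the non-runners and A in the runners. Runners minus non-runners gave a log2 difference of -0.07 ± 0.21 (SE, 95% interval -0.56 to 0.41, limma adjusted p = 0.942). The dim probe set D28581_at read 3.2 to 7.3 in non-runners and 8.4 to 9.8 in runners without overlap, but lay far below the control level, and U26663_s_at read 1.5 to 3.2.

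Ptger2 and Ptger4, the prostaglandin E2 receptors that raise cyclic AMP, gave no signal above the control level. U94708_at of Ptger2 read 1.9, 3.4 and 2.6 on non-runners A, B and C and 1.6, 1.5 and 1.5 on runners A, B and C. D28860_s_at of Ptger4 read 4.3, 4.0 and 10.2 and then 5.2, 4.2 and 4.6 in the same order. These values do not show whether the genes are expressed.

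Non-runner B was the highest or the lowest array for 5 of the 8 tested members. For all tested probe sets the share was 58.5%, against 26.9% to 29.2% for the other arrays. Runner B was the lowest array for 4 of the 8, Ptgis, Ptgs1, S67722_s_at of Ptgs2 and Ptgir, while it was the lowest for 14.4% of all tested probe sets.

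The rest of the pathway was read from lists of related genes, 1 probe set per gene, the brightest. The lists named 70 genes and 45 were tested, of which 0 passed limma's adjusted test, as did 0 of the members. Among enzymes that release arachidonic acid, 4 of 6 tested genes were above 0 and 2 below, with a median log2 difference of 0.10. Pla2g4a, the cytosolic phospholipase that supplies cyclooxygenase, averaged 213 ± 32.7 in the non-runner group and 182 ± 7.3 in the runner group. The log2 difference was -0.22 ± 0.16 (SE, limma adjusted p = 0.752). Its intensities overlapped, with 189.2 on non-runner C and 189.4 on runner A. On the normalized log2 scale these arrays were nearly tied, at 7.59 and 7.58, and the groups did not overlap. Pla2g2a, a secreted phospholipase, measured 970 ± 294 and 1106 ± 59.1 (log2 difference 0.26 ± 0.24 SE, and -0.0076 without non-runner B). Plaa, a phospholipase-activating protein, had an unadjusted p of 0.0331 by limma but lay below the control level on every array.

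Other terminal synthases and reductases were represented by 3 tested genes with a median of -0.01. Ptges, Ptges2, Ptges3 and Ptgds were listed but not tested. Cbr1, a carbonyl reductase that acts on prostaglandins, measured 48.8 ± 10.9 and 57.7 ± 4.1 (SD, n = 3). Akr1b1, an aldose reductase able to make prostaglandin F2 alpha, measured 831 ± 176 and 798 ± 37.1, with a log2 difference of -0.01 that was 0.14 without non-runner B. Hpgds, the prostaglandin D synthase of blood cells, lay below the control level on every array. For Cbr1 and Hpgds the 2 tested probe sets differed in sign.

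Slco2a1, the transporter that takes prostaglandins up into cells for breakdown, had the clearest difference outside the members in the synthesis and clearance lists. It measured 75.3, 105.6 and 87.7 on non-runners A, B and C and 52.0, 65.9 and 66.0 on runners A, B and C, without overlap. Between the groups the log2 difference was -0.53 ± 0.18 (SE), with an unadjusted p of 0.0178 by limma and an adjusted p = 0.571. A second tested probe set of Slco2a1 differed by 0.00, so the pair did not show the same result. Ptgr1, a prostaglandin reductase, measured 24.9 ± 8.4 and 30.1 ± 11.6, below the control level on every array. Abcc4 and Hpgd of the transport and clearance list were not tested. Ptgfrn, a protein that binds to the prostaglandin F2 alpha receptor, measured 107 ± 21.2 and 99.3 ± 5.7 in its brightest probe set, with a log2 difference of -0.09 that was 0.03 without non-runner B. A second tested probe set of Ptgfrn differed by 0.39.

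Of 13 tested genes of Gs and cyclic AMP signalling, through which the prostacyclin receptor acts, 8 were above 0 and 5 below, with a median log2 difference of 0.01. Adcy2, an adenylyl cyclase, averaged 59.9 ± 4.5 over the non-runner arrays and 46.6 ± 5.7 over the runner arrays (difference of -0.37 ± 0.15 SE in log2, adjusted p = 0.594 by limma). Gnas, the Gs alpha subunit, measured 4504, 4624 and 4554 on non-runners A, B and C and 3332, 3763 and 3397 on runners A, B and C. Its groups did not overlap, and the log2 difference of -0.28 ± 0.14 (SE) had a limma adjusted p = 0.65. Of its 4 tested probe sets, 3 were below 0. Prkar1a, a regulatory subunit of protein kinase A, measured 208 ± 35.2 and 263 ± 5.5 (log2 difference 0.35 ± 0.17 SE, limma adjusted p = 0.65). Its groups did not overlap either, with runners higher. Of the 13 genes, 1 was higher in runners without overlap and 3 lower, beside 7.13% and 7.76% of all tested probe sets.

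Of 10 tested genes of Gq and G12 signalling, which thromboxane and prostaglandin F2 alpha receptors use, 3 were above 0 and 7 below, with a median of -0.10. Gnaq, Gna11 and Gna13, which encode G proteins, were listed but not tested. An unadjusted p under 0.05 by limma was found for 1 gene above 0 and 1 below. The 1 below was Plcb2, a phospholipase C, which lay below the control level on every array. Plcb3 measured 38.4 ± 11.9 and 31.7 ± 6.7, and both means lay under that level.

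Of 7 tested genes known to induce or accompany Ptgs2, 2 were above 0 and 5 below, with a median of -0.17. Cebpd, a C/EBP transcription factor, measured 124.7, 152.1 and 102.3 on non-runners A, B and C and 68.0, 91.4 and 86.0 on runners A, B and C, without overlap. The log2 difference was -0.61 ± 0.19 (SE, limma unadjusted p = 0.0118 and adjusted p = 0.515) in its brightest probe set, and its 3 tested probe sets ranged from -0.61 to 0.68. Nfkb1, an NF-kB subunit, measured 209 ± 40.2 and 170 ± 18.1, and Il1b lay below the control level on every array.

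In the neighbouring lipoxygenase branch, 2 of 3 tested genes were above 0. Alox15, a lipoxygenase that also uses arachidonic acid, measured 44.3, 13.3 and 14.0 on non-runners A, B and C and 53.9, 33.9 and 80.1 on runners A, B and C. Non-runners B and C and runner B lay below the control level, and the groups overlapped. Runners minus non-runners gave a log2 difference of 1.25 ± 0.44 (SE, limma adjusted p = 0.577). Lta4h, leukotriene A4 hydrolase, measured 325 ± 69.8 and 285 ± 18.8, and its log2 difference of -0.19 moved to -0.03 without non-runner B. Alox5ap, which presents arachidonic acid to 5-lipoxygenase, measured 107 ± 22.0 and 112 ± 15.8 in its brightest probe set. There it differed by 0.09, and by -0.08 without non-runner B. A second tested probe set of Alox5ap differed by -0.52 (limma unadjusted p = 0.0264), opposite in sign.

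**Figure D4:**
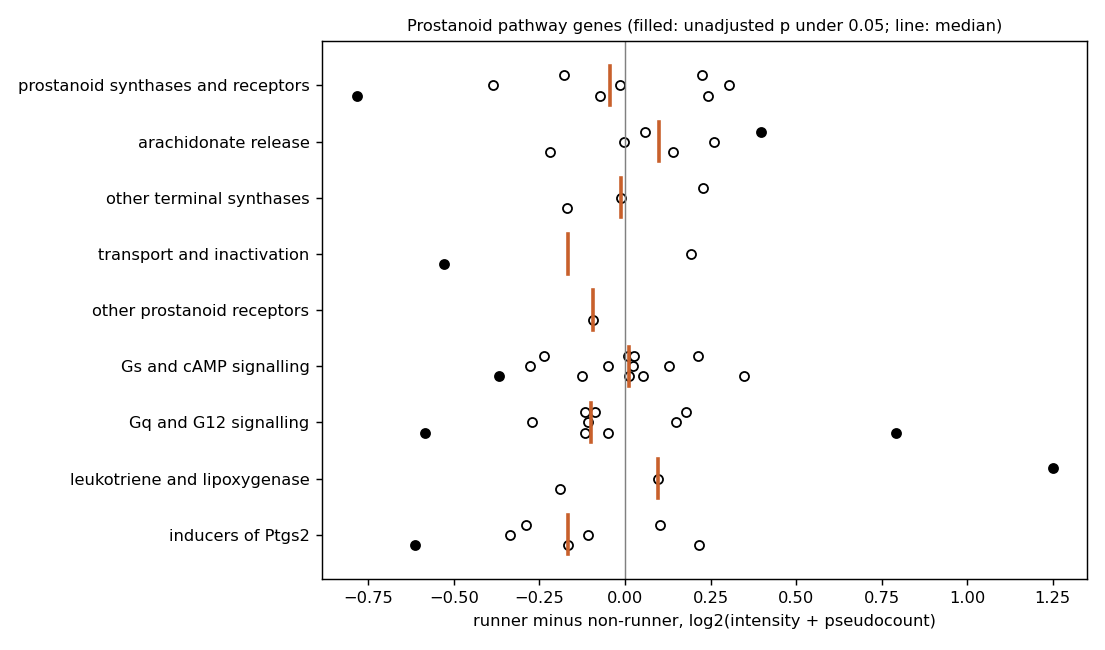
Log2 difference, runner minus non-runner, of the 8 tested prostanoid probe sets (top row) and of 1 probe set per tested gene in 8 lists of related genes. Filled points had an unadjusted p under 0.05 by limma, orange lines are medians, and the medians lie between -0.17 and 0.10.

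The genes whose levels followed Ptgir most closely over the 6 arrays were Ptpn1, a tyrosine phosphatase, Itga7, a laminin-binding integrin of muscle, and Gas7. Their Pearson r with Ptgir was 0.991, 0.979 and 0.966 on normalized log2 values, given as a description of 6 arrays chosen from the whole table. Itga7 averaged 428 ± 6.7 in the non-runner group and 374 ± 30.4 in the runner group, and Gas7 162 ± 4.8 and 124 ± 11.2 (SD, n = 3). Ptpn1 measured 55.7 ± 2.3 and 43.1 ± 7.5, and its value on runner B, 36.0, lay below the control level. As in Ptgir, runner B had the lowest value of each, a likeness that choosing genes by this correlation favours. For Ptgis the closest were Elob, Csnk2a1 and Sephs2 (r = 0.971, 0.963 and 0.959), of which Csnk2a1 and Sephs2 lay below the control level on every array. Elob measured 474 ± 18.4 in each group.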

How the data were processed

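Total RNA of rat aorta was measured on 6 arrays, 3 per group, each a pool of 3 aortae. The deposited values are intensities on a linear scale, 1 per probe set and array for 8799 probe sets. They carry no detection calls. Which software made them is not stated in the labels. In the deposited intensities the trimmed mean of each array was 100.0, as a scaling to a common target would give, and array medians ran from 28.5 to 32.2. Array data have no read depth, so the number of arrays limits the precision. The platform annotation named 1 gene for 7006 probe sets, more than 1 for 308 and no gene for 1426, beside 59 controls. Entrez gene identifiers of 6985 probe sets matched RefSeq genes of GRCr8, which changed 0 symbols.

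Values were analysed as log2(intensity + 2.4), the 10th percentile of the positive values, and quantile normalized. Fold changes on that scale understate changes of dim genes. After removal of controls and of the 40% of probe sets with the lowest mean, limma 3.58.1 in R 4.3.3 (lmFit, eBayes) was fitted to the remaining 5244 probe sets, two-sided, with Benjamini-Hochberg adjustment over all of them at 0.05. With 3 against 3 arrays the smallest exact permutation p is 0.1, so that test was not used. The fit was tested on simulated data.

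The members, gene lists and alternatives were chosen with earlier results of these data known. Named genes were every member probe set, the 3 genes of each list with the smallest unadjusted p, and the 3 genes most correlated with Ptgis and with Ptgir. 1 gene that this rule picked is not reported here. Marker genes outside this rule were named for the marker check, and genes called only under an alternative were named after their values were seen. The alternatives were other pseudocounts, normalizations, filters and eBayes settings, the chip letter as a block, the beta-actin ratio as covariate, array weights, and leaving out each array. Figures were drawn with matplotlib 3.10.9.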

Additional observations from a re-analysis of the deposited data

How the results depend on the processing

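All 17 alternatives, 11 with 6 arrays and 6 that each left out 1, gave 0 prostanoid probe sets past limma's adjusted threshold. Unadjusted p values under 0.05 were found for 298 to 617 of all tested probe sets with 6 arrays and for 283 to 550 with 1 array left out. Of all tested probe sets 0 were called higher and 0 lower as reported. Array quality weights called 1 lower, and leaving out each array called 0 to 4 higher and 0 to 1 lower. Those were Pdlim2 higher and Plpp2 lower without non-runner A, and Rbfox2, Erbb2 and 2 probe sets without a symbol higher without non-runner C. Of 136 member results, 9 changed sign, and the cause was not tested. With the beta-actin ratio as covariate the log2 difference was 0.055 for Ptgis, 0.020 for S67722_s_at of Ptgs2 and -0.048 for Ptger3. As arrays were left out it ranged from -0.086 to 0.073 for Ptgis, -0.65 to 0.028 for that Ptgs2 probe set and -0.24 to 0.070 for Ptgfr. Ptgir, Ptgs1, Tbxa2r and L25925_s_at of Ptgs2 kept their sign in all 17, although Tbxa2r came down to 0.027 with the covariate and to 0.10 without non-runner B, and L25925_s_at to 0.015 without runner A. The marker sums without Egfl7 or Pmp22, and the list genes without non-runner B, were added after seeing the data.

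The titles of runner arrays A, B and C also carry the letters D, E and F, so the labels do not plainly pair the arrays. Deviations of arrays that share the letter A, B or C correlated at -0.09, -0.04 and -0.05. For arrays of different letters the range was -0.01 to 0.07. These values do not show whether the arrays were paired. With the letter as a replicate block 0 probe sets passed, and Ptgir stayed at -0.78 (limma adjusted p = 0.606). Signal limits these data, since 8 of the 16 member probe sets lay below the control level of 40.8 on every array.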
